A study of Mus musculus with 12 samples.

Results

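The apolipoprotein L genes of the mouse were followed in migratory dendritic cells (DCs) sorted from duodenum, liver and pancreas. The members were 10 genes taken by symbol from the 55401 genes measured: Apol7a, Apol7b, Apol7c, Apol7e, Apol8, Apol9a, Apol9b, Apol10a, Apol10b and Apol6. They were picked after earlier results of these data were known, so their levels and the differences between tissues are given as a description, with no p-value. RNA was sequenced in bulk from B6 mice of 6 to 8 weeks, with 4 libraries from duodenum, 4 from liver and 4 from pancreas, each library made from the pooled tissue of 2 mice. In all 3 groups the gate kept live CD45+ cells without lineage markers that carried CD11c, much MHC class II and CD103 but no CD11b, as conventional type 1 DCs (cDC1) do. The groups differed in no label other than the tissue.

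Apolipoprotein L proteins are mostly intracellular proteins that insert into membranes, unlike the secreted apolipoproteins that carry lipid in blood. The best known human member, APOL1, lyses trypanosomes by forming an ion channel in their membranes. In mouse cDC1, APOL7C is known to be recruited to phagosomes that hold dead-cell antigen and to disrupt their membrane, which lets antigen reach the cytosol for presentation on MHC class I (cross-presentation), and that recruitment is known to need the phagosomal NADPH oxidase. Mouse Apol9a and Apol9b are known as interferon-inducible genes.

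The promoter-side sequences of 4 members are shown first, since 3 of them are Apol7 genes whose windows are alike in sequence, of which Apol7c was high and Apol7b and Apol7e were low in these cells, and the other is Apol10b, the neighbour of Apol7c with the same order of tissues. Each is the 250 bases before the annotated start in RefSeq (build GRCm38.p6), written 5′ to 3′ on the gene's own strand: Apol7c at chr15:77533316-77533565 (minus strand), Apol7b at chr15:77447461-77447710 (minus strand), Apol7e at chr15:77698639-77698888 (plus strand) and Apol10b at chr15:77596126-77596375 (minus strand). Capitals mark matches, on either strand, to the letters of an interferon-stimulated response element: GAAA, any 2 bases and GAAA again, which read TTTC, any 2 bases and TTTC on the other strand.
Apol7c: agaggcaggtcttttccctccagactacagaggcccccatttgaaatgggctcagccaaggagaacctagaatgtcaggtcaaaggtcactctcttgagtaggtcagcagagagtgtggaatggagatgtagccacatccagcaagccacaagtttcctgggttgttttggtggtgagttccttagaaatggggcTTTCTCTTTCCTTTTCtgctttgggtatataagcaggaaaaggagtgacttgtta
Apol7b: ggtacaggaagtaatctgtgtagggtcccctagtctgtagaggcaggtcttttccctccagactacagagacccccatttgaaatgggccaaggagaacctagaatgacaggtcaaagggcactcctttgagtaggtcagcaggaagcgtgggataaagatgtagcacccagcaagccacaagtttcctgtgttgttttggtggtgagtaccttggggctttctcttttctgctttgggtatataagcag
Apol7e: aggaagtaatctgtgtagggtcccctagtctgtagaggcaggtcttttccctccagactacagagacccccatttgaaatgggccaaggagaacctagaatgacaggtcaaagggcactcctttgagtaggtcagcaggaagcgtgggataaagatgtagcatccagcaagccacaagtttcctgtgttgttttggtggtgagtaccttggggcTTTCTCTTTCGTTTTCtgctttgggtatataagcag
Apol10b: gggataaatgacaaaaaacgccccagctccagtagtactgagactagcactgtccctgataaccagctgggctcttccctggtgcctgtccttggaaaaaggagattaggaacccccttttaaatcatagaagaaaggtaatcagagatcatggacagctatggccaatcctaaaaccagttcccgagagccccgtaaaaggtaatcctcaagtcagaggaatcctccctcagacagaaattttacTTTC
In Apol7c the letters matched at 2 overlapping places, which began 55 and 49 bases before the start. In Apol7e they also matched at 2 overlapping places, 36 and 30 bases before the start, and in Apol7b they did not match in this window. The capitals that end the Apol10b line are the first part of a match that runs across the start, tttacTTTCATTTTCgtgca with 5 bases on each side. Over windows of 300 bases (250 before the start and 50 after), the letters were in 6 of the 9 members with an entry, namely Apol7c, Apol10b, Apol7e, Apol9a, Apol9b and Apol10a, and in 3.443% of 32851 windows of all genes. No match was found in the windows of Apol8, Apol7a and Apol7b. A TATA box (TATANAA, either strand) was read in Apol7c, Apol7b and Apol7e, and in 11.35% of all windows. The 250-base windows of Apol7b and Apol7e were identical at 244 of 245 aligned bases, those of Apol7c and Apol7e at 203 of 217, and those of Apol7b and Apol7c at 199 of 212. The first windows of Apol9a and Apol9b were identical at 228 of 228. Windows this alike are not independent, so the count of members with the letters cannot be weighed against the share of all windows. A match of letters is a description and not a site of binding.

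The libraries held 220897606 to 356072585 estimated counts. Of 18 cDC1 markers, 2 were called higher and 4 lower in duodenum than in liver, and 5 higher and 5 lower than in pancreas; their sum ran from 5399 to 8511 CPM (counts scaled to library size) in duodenum, from 8341 to 9889 in liver and from 7358 to 9677 in pancreas. Xcr1 averaged 535 ± 149 CPM in duodenum, 611 ± 77.5 in liver and 406 ± 49.5 CPM in pancreas (SD, n = 4 each), and it passed the test in no comparison (lowest adjusted p = 0.22, edgeR quasi-likelihood test). Itgam, which encodes the excluded CD11b, averaged 2.46 CPM in duodenum, 1.70 CPM in liver and 2.67 CPM in pancreas. Transcripts of cells that the gate should exclude were also read. Summed over 11 plasma cell markers they ran from 8477 to 12431 CPM in duodenum, from 217.7 to 731 in liver and from 249 to 1109 in pancreas. The sum over 19 acinar markers ran from 5.76 to 19.5 CPM in duodenum, from 5.45 to 6.42 in liver and from 1227 to 6261 in pancreas. In bulk libraries, fewer cells that express a gene and less RNA per cell cannot be told apart.

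Apol7c (ENSMUSG00000044309) was the most abundant member in every tissue. Its level, in TPM (transcript abundance scaled for gene length and depth), was 1088, 1092, 1351 and 1277 in the duodenum libraries 1 to 4. In liver it was 115.6, 192.9, 192.0 and 132.6 TPM, and in pancreas 4.07, 5.73, 12.8 and 27.6 TPM. The 3 tissues did not overlap: the lowest duodenum library was above every liver library, and the lowest liver library was above every pancreas library. Means were 1202 ± 133 TPM in duodenum, 158 ± 40.1 in liver and 12.6 ± 10.7 in pancreas (SD, n = 4 each). Ranked by mean TPM over all 55401 genes, Apol7c stood at place 132 in duodenum, 600 in liver and 5696 in pancreas. It took 0.228 ± 0.0182% of all counts in duodenum, 0.0301 ± 0.00756% in liver and 0.00242 ± 0.00208% in pancreas.

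As a difference of log2 counts, Apol7c was higher by 3.08 ± 0.49 (SE) in duodenum than in liver, which is 8.47-fold, and by 6.64 ± 0.58 in duodenum than in pancreas, which is 99.4-fold. Between liver and pancreas the difference was 3.55 ± 0.50, or 11.7-fold. Relative to its mean the spread was widest in pancreas, where libraries 3 and 4 were higher than libraries 1 and 2. The summed plasma cell markers were also higher in pancreas 3 (1052 CPM) and pancreas 4 (1109 CPM) than in pancreas 1 (249 CPM) and pancreas 2 (253 CPM), and their part in the Apol7c level was not tested. In liver, Apol7c was at 192.9 TPM in liver 2, which had the most plasma cell reads (731 CPM). It was at 192.0 TPM in liver 3 (263 CPM), 115.6 TPM in liver 1 (249 CPM) and 132.6 TPM in liver 4 (217.7 CPM). Without liver 2, pancreas 3 and pancreas 4 the differences of Apol7c were 3.22 between duodenum and liver, 8.10 between duodenum and pancreas and 4.88 between liver and pancreas. Leaving out pancreas 4 alone gave 7.39 between duodenum and pancreas and 4.26 between liver and pancreas. All 4 duodenum libraries were high in plasma cell markers, of which 7 of 11 were called higher in duodenum than in liver and 7 of 11 higher than in pancreas, so those reads and the tissue cannot be told apart there. Jchain, which marks plasma cells, averaged 1521 CPM in duodenum, 19.1 in liver and 63.6 CPM in pancreas.

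Markers of other DCs and of epithelium moved in part with Apol7c. Of 14 markers of type 2 DCs (cDC2), 7 were higher and 1 lower in duodenum than in liver, and 8 were higher and 2 lower in duodenum than in pancreas. Summed, they ran from 187 to 308 CPM in duodenum, from 518 to 579 in liver and from 625 to 771 in pancreas, with Ccr2, a chemokine receptor, at 41.7 CPM in duodenum, 390 in liver and 453 CPM in pancreas. Without Ccr2, left out after its values were seen, the sums ran from 160 to 254 CPM in duodenum, from 157 to 174 in liver and from 213 to 278 in pancreas. Sirpa, which defines cDC2, averaged 7.15 ± 3.77 CPM in duodenum, 1.46 ± 0.56 in liver and 1.51 ± 0.55 CPM in pancreas. Of 25 markers of intestinal epithelium, 3 were higher and 2 lower in duodenum than in liver, and their sums ran from 174 to 191 CPM in duodenum, from 95.3 to 106 in liver and from 162 to 252 in pancreas. The 3 higher were Epcam, Anpep and Cdh1. Epcam, an adhesion molecule that is also on the cDC2 list, averaged 27.1 CPM in duodenum, 5.82 in liver and 39.8 CPM in pancreas, and was higher in duodenum than in liver by 2.22 ± 0.26 on the log2 scale (SE, adjusted p = 9.91e-05, edgeR quasi-likelihood test). Cdh1, which encodes E-cadherin, averaged 2.91 CPM in duodenum, 0.741 in liver and 0.512 CPM in pancreas. The epithelial genes Vil1 (1.06 CPM in duodenum) and Cdx1 (0.209 CPM in duodenum) were near 0, and the part of these cells in the Apol7c level was not tested.

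**Figure D1:**
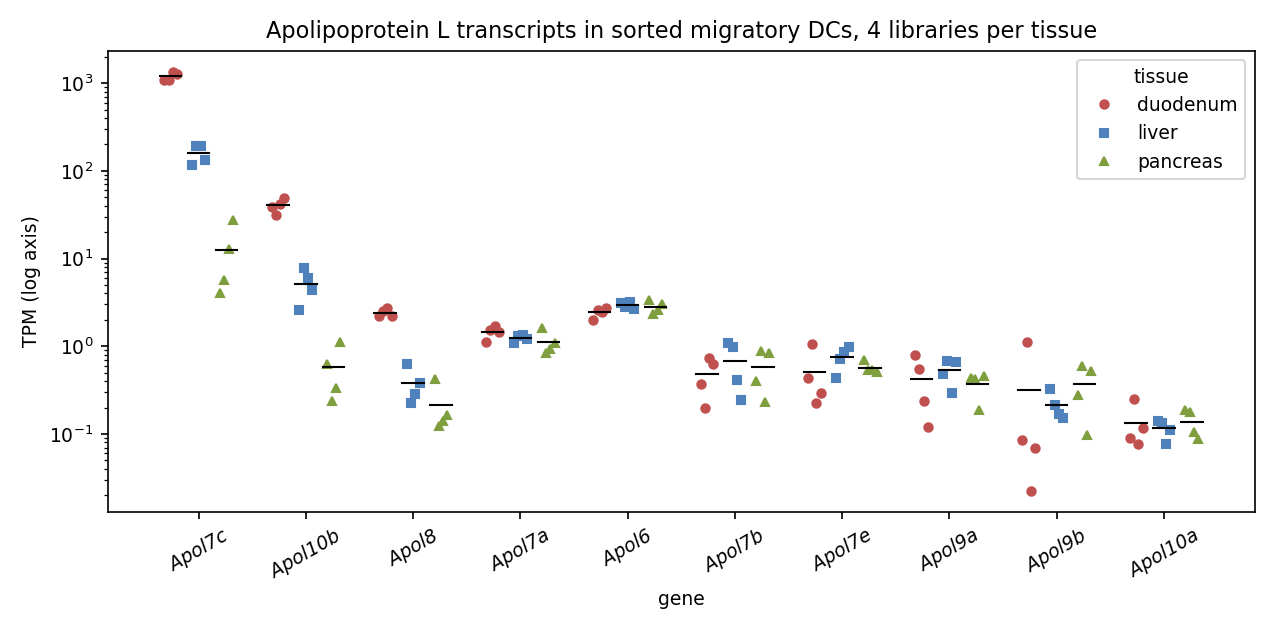
Level of each of the 10 apolipoprotein L genes in TPM (log axis), with 1 point per library for duodenum, liver and pancreas and a line at the mean of the 4 libraries. Apol7c stood at 1202 TPM in duodenum, 158 in liver and 12.6 in pancreas, Apol10b and Apol8 were also highest in duodenum, and the other 7 genes overlapped between all tissues.

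Apol10b (ENSMUSG00000050014), which lies next to Apol7c on chromosome 15, had the same order of tissues at a far lower level. It was at 39.2, 31.6, 41.9 and 49.2 TPM in the duodenum libraries, at 2.60, 7.77, 5.94 and 4.40 TPM in liver and at 0.626, 0.240, 0.334 and 1.13 TPM in pancreas. No duodenum library overlapped a liver library, and no liver library a pancreas library. Means were 40.5 ± 7.27 TPM in duodenum, 5.18 ± 2.20 in liver and 0.582 ± 0.401 in pancreas (SD, n = 4 each). On the log2 scale Apol10b differed by 3.13 ± 0.44 (SE) between duodenum and liver, by 6.22 ± 0.51 between duodenum and pancreas and by 3.09 ± 0.44 between liver and pancreas. These are 8.77-fold, 74.7-fold and 8.52-fold. Leaving out pancreas 4 raised the difference between duodenum and pancreas to 6.82 and that between liver and pancreas to 3.64.

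Within a library, the ratio of Apol7c to Apol10b in TPM was 27.8, 34.5, 32.3 and 25.9 in duodenum and 44.5, 24.8, 32.3 and 30.1 in liver. In pancreas it was 6.51, 23.9, 38.5 and 24.4. The mean ratio was 30.1 ± 3.95 in duodenum, 33.0 ± 8.33 in liver and 23.3 ± 13.1 in pancreas, and the ranges overlapped. Over the same libraries the Apol7c mean itself differed 95.7-fold in TPM between duodenum and pancreas. Pancreas 1, with the lowest ratio, had the least Apol7c of all 12 libraries.

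Apol8 (ENSMUSG00000056656), at the far end of the gene cluster, was the other member that was higher in duodenum. It was at 2.24, 2.56, 2.70 and 2.19 TPM in duodenum, at 0.628, 0.224, 0.287 and 0.377 TPM in liver and at 0.421, 0.122, 0.141 and 0.164 TPM in pancreas. The duodenum libraries lay above all others, and liver and pancreas overlapped. Means were 2.42 ± 0.246 TPM in duodenum, 0.379 ± 0.177 in liver and 0.212 ± 0.140 in pancreas (SD, n = 4 each). Apol8 thus differed on the log2 scale by 2.84 ± 0.38 (SE) between duodenum and liver, by 3.62 ± 0.40 between duodenum and pancreas and by 0.78 ± 0.37 between liver and pancreas. Without pancreas 1, the highest of its group, the difference between duodenum and pancreas was 4.16 and that between liver and pancreas 1.27. On the scale of log2(TPM + 1), where low genes move less, the Apol8 difference between duodenum and liver was 1.32.

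The other 7 members were low and overlapped between all tissues. Apol6 (ENSMUSG00000033576) averaged 2.45 ± 0.319 TPM in duodenum, 2.94 ± 0.247 in liver and 2.84 ± 0.448 in pancreas, which made it more abundant than Apol8 in liver and pancreas and level with it in duodenum. Its log2 differences were -0.10 ± 0.17 (SE) between duodenum and liver and -0.13 ± 0.17 between duodenum and pancreas. Apol7a (ENSMUSG00000010601) averaged 1.45 ± 0.241 TPM in duodenum, 1.24 ± 0.118 in liver and 1.12 ± 0.345 in pancreas, and its largest log2 difference was 0.46 ± 0.23, between duodenum and pancreas, or 0.70 without duodenum 2 and pancreas 1. Apol7a and Apol6 thus varied little across tissues in which Apol7c, of the same family, differed by 99.4-fold between duodenum and pancreas.

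Apol7b (ENSMUSG00000068252) ran from 0.199 to 0.745 TPM in duodenum, from 0.242 to 1.10 in liver and from 0.232 to 0.883 in pancreas. Apol7e (ENSMUSG00000071716), whose transcripts share most of their sequence with Apol7b, ran from 0.225 to 1.07 TPM in duodenum, from 0.440 to 0.986 in liver and from 0.510 to 0.696 in pancreas. With all libraries neither differed by more than 0.46 on the log2 scale, with SEs of 0.39 to 0.54. Leaving out duodenum 2 alone gave Apol7e -0.996 in duodenum against liver, where all libraries gave -0.46, and -0.68 in duodenum against pancreas, where all libraries gave -0.14. Apol10a (ENSMUSG00000050982) was the lowest member, at 0.133 ± 0.0797 TPM in duodenum, 0.116 ± 0.0286 in liver and 0.139 ± 0.0508 in pancreas, so the 2 Apol10 genes differed widely in level and in pattern. Its log2 difference was 0.35 ± 0.39 between duodenum and liver, and -0.02 without duodenum 2.

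The interferon-inducible pair was low in all 3 tissues. Apol9a (ENSMUSG00000057346) averaged 0.428 ± 0.308 TPM in duodenum, 0.530 ± 0.180 in liver and 0.376 ± 0.126 in pancreas. Apol9b (ENSMUSG00000068246) was at 0.0844, 1.10, 0.0224 and 0.0686 TPM in the duodenum libraries, where duodenum 2 stood far above the rest. It ran from 0.152 to 0.322 TPM in liver and from 0.0970 to 0.593 in pancreas. With all libraries its log2 difference was 0.67 ± 0.88 (SE) between duodenum and liver and -0.20 ± 0.88 between duodenum and pancreas. Without duodenum 2 the differences turned to -1.59 ± 0.63 and -2.47 ± 0.65, and Apol9b was then called lower in duodenum than in pancreas. Apol9a and Apol9b share most of the Apol9b transcript sequence, and when the counts of the pair were summed the difference was 0.02 ± 0.50 between duodenum and liver and 0.13 ± 0.50 between duodenum and pancreas.

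Sequence shared between members bears on how firmly their reads can be assigned. In the GENCODE M21 transcripts (GRCm38), 61.9% of the distinct 31-base words of Apol7c occurred in no other gene, as did 88.2% of those of Apol10b, 99.8% of those of Apol8 and 97.0% of those of Apol6. For Apol7b the share was 17.1% and for Apol7e 16.6%, with 1910 words common to the 2 genes, so their separate levels are uncertain. Apol9b had 35.1% of words of its own and shared 1197 with Apol9a. Apol7c shared 383 words with Apol7a, which is 18.6% of its own, 171 with Apol7e and 142 with Apol7b. The counts of the 4 Apol7 genes were also summed. The log2 differences were then 3.07 ± 0.43 (SE) between duodenum and liver and 6.47 ± 0.50 between duodenum and pancreas. Between liver and pancreas the difference was 3.41 ± 0.43, and all 3 were close to those of Apol7c alone. The sum depends little on how reads were split among the 4 genes, but it cannot show which gene they came from.

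**Figure D2:**
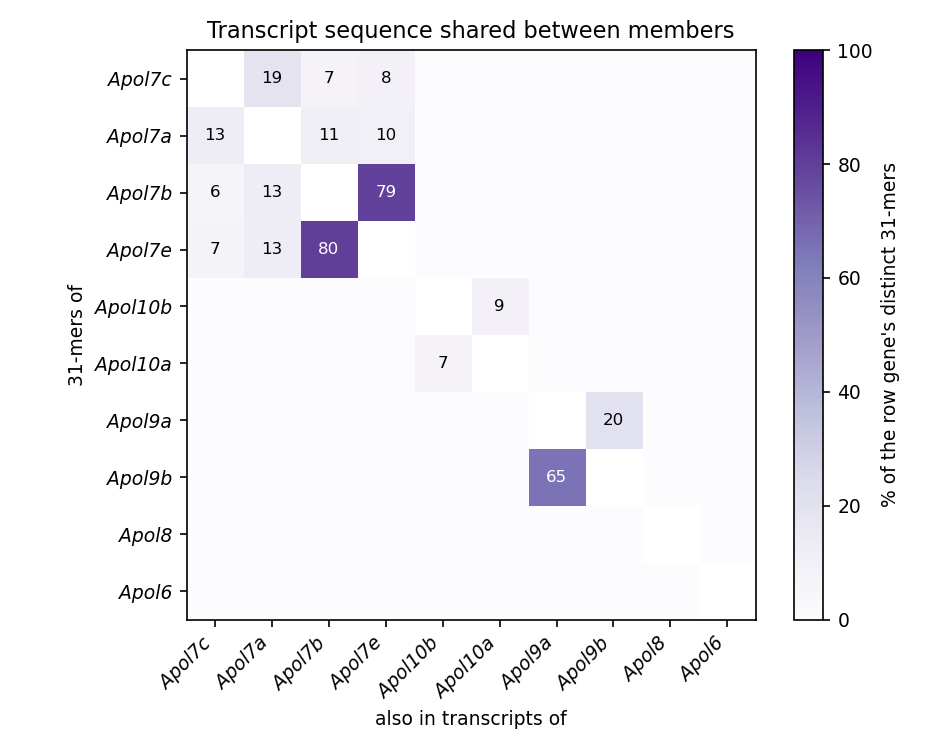
Share of each gene's distinct 31-base transcript words (rows, in percent) that also occur in transcripts of another apolipoprotein L gene (columns), with shares of 1% or more printed. Apol7b and Apol7e shared about 80% of their words with each other, Apol9b 64.9% with Apol9a, Apol7c 18.6% with Apol7a, and Apol10b, Apol8 and Apol6 were mostly distinct.

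Summed over the 10 members, the family stood at 1250 ± 138 TPM in duodenum, 170 ± 42.1 in liver and 19.4 ± 11.1 in pancreas (SD, n = 4 each). Apol7c made up 96.1 ± 0.33% of that sum in duodenum and 92.8 ± 0.76% in liver. In pancreas its share was 33.7, 48.1, 71.3 and 77.9% in libraries 1 to 4, so that in pancreas 1 and pancreas 2 most of the family's transcripts came from other members. Without Apol7c the sum was 48.7 ± 6.48 TPM in duodenum, 12.03 ± 2.15 in liver and 6.80 ± 1.37 in pancreas. The order of members by mean TPM in duodenum was Apol7c, Apol10b, Apol6, Apol8 and Apol7a, followed by 5 genes under 1 TPM. Apol6 and Apol8 lay within their spread of each other there. In liver the order was Apol7c, Apol10b, Apol6, Apol7a, Apol7e, Apol7b, Apol9a and Apol8, where Apol10b and Apol6 overlapped and so did the genes from Apol7e on. In pancreas it was Apol7c, Apol6, Apol7a and then Apol7b, Apol10b and Apol7e, which overlapped.

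All 10 members passed the filter on low counts. In the fit over 44624 genes, 3 of 10 members (Apol7c, Apol10b and Apol8) were called higher in duodenum than in liver, where 7.32% of all genes tested were called and 3.95% were called higher in duodenum. The same 3 were called higher in duodenum than in pancreas (7.7% of all genes called, 3.94% higher in duodenum). Between liver and pancreas 2 members, Apol7c and Apol10b, were called higher in liver (1.11% of all genes called, 0.426% higher in liver). No member was called lower, as 3.37% of genes were in duodenum against liver, 3.76% in duodenum against pancreas and 0.681% in liver against pancreas. These members were also the ones whose TPM ranges did not overlap, with the first tissue higher. The same was so for 4.48% of genes in duodenum against liver, 5.34% in duodenum against pancreas and 4.76% in liver against pancreas. The members were chosen on these values, so nothing is read from the counts. The median log2 difference over the 10 members was 0.37 between duodenum and liver, 0.13 between duodenum and pancreas and 0.22 between liver and pancreas, beside -0.10, -0.09 and 0.01 over all genes tested.

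The 5 other genes with apolipoprotein L names, Apol7d, Apol10c-ps, Apol11a, Apol11b and Apold1, were low in all tissues. Apol11b, which lies between Apol10b and Apol7e, was the most abundant, at 0.827 ± 0.224 TPM in duodenum, 1.02 ± 0.388 in liver and 0.475 ± 0.148 in pancreas, and its log2 difference between duodenum and pancreas was 0.89 ± 0.33 (SE, adjusted p = 0.133, edgeR quasi-likelihood test). DESeq2 called that difference. The other 4 averaged 0.0750 to 0.491 TPM in duodenum.

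To see whether the tissue pattern extended along the chromosome, the members were placed among their neighbours on mouse chromosome 15. In the reference order Apol6 came first, then Rbfox2, Apol7a, Apol9a, Apol7b, Apol10a, Apol11a, Apol7c, Apol10b, Apol11b, Apol7e, Apol9b and Apol8. The high pair Apol7c and Apol10b are direct neighbours, while Apol7b and Apol10a before them and Apol7e and Apol9b after them had TPM ranges that overlapped between all tissues. Apol8 is separated from the pair by Apol11b, Apol7e and Apol9b, and next to it lies Myh9, a non-muscle myosin heavy chain. Of 21 protein-coding neighbours that carry no Apol name, 2 were called higher and 3 lower in duodenum than in liver, and 1 higher and 3 lower in duodenum than in pancreas. Myh9 was higher in duodenum than in liver by 0.65 ± 0.13 on the log2 scale (SE, adjusted p = 0.00712). Ift27, a transport gene of cilia, was higher in duodenum by 0.62 ± 0.15 than in liver (adjusted p = 0.0235, lost in 4 of 23 alternatives) and by 0.54 ± 0.15 than in pancreas (adjusted p = 0.046, lost in 10 of 23). Csf2rb2 and Csf2rb, which encode beta chains of cytokine receptors that include the GM-CSF receptor, were lower in duodenum. Csf2rb2 averaged 4.16 ± 0.419 CPM in duodenum, 26.0 ± 1.19 in liver and 24.6 ± 4.57 CPM in pancreas, with log2 differences of -2.65 ± 0.16 against liver (adjusted p = 3.19e-07) and -2.57 ± 0.16 against pancreas (adjusted p = 2.57e-07).

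**Figure D3:**
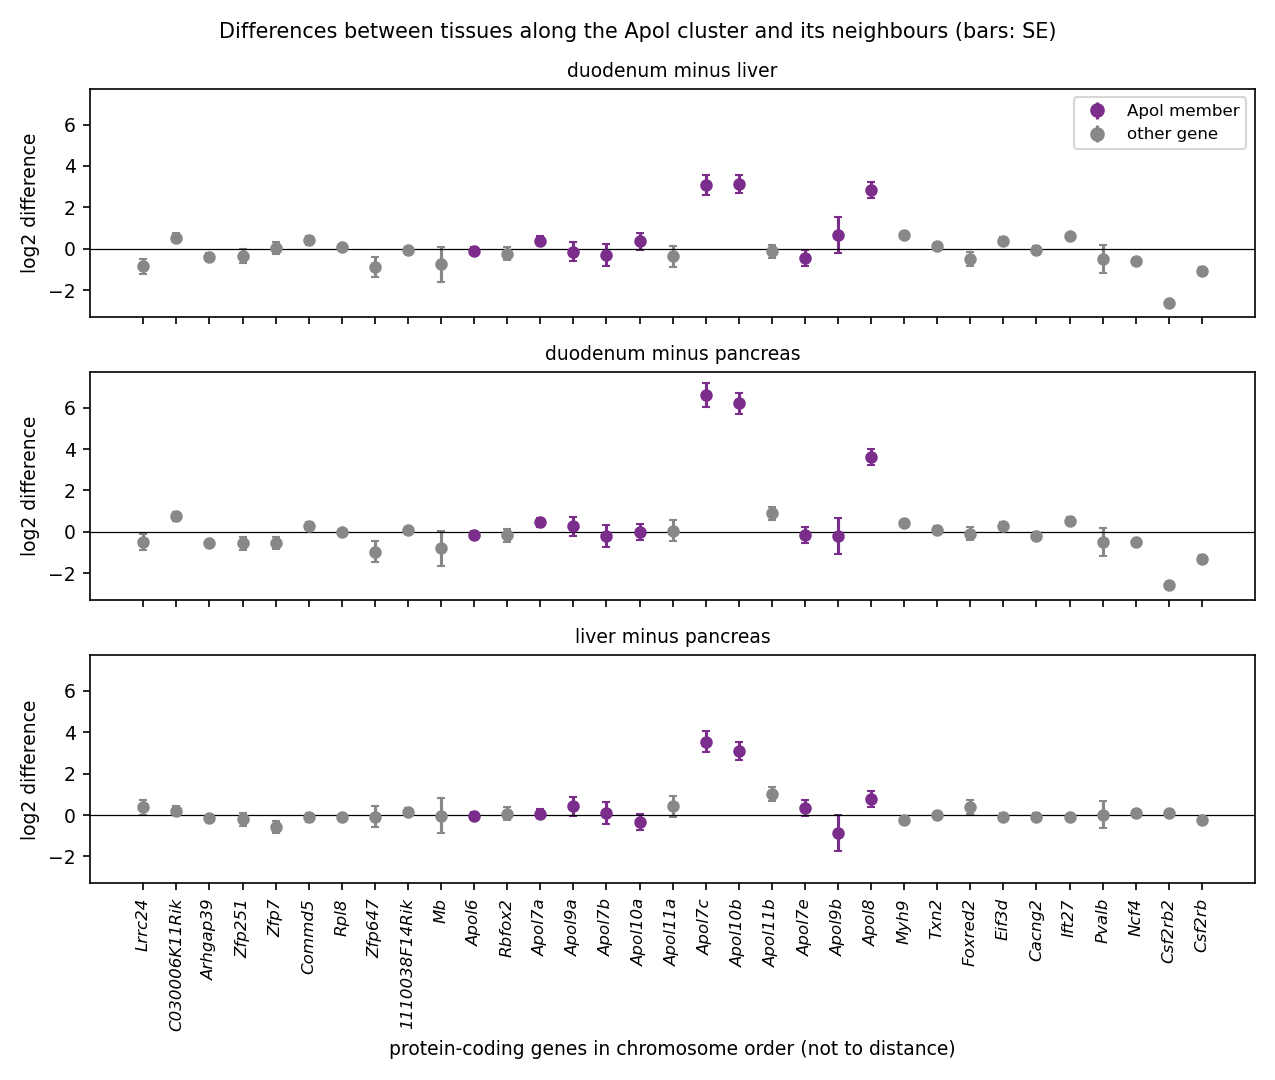
Log2 difference in each comparison (points, with SE bars) for the apolipoprotein L genes and neighbouring protein-coding genes, in chromosome order and not to distance. Apol7c, Apol10b and Apol8 had values from 2.84 to 6.64 in both comparisons of duodenum, where no other gene shown was above 1, while Csf2rb2 was lowest at -2.65 against liver.

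Genes with the pattern most like that of Apol7c were sought by Pearson's r of log2 CPM over the 12 libraries, among 8349 genes with at least 10 CPM in some tissue. The points share the 3 tissues, so r mostly follows the tissue means. The 8 highest were Ctla2b (r = 0.981), Slco3a1 (0.981), Ptgis (0.980), Casp6 (0.978), Apol10b (0.977), Tifab (0.976), Fndc5 (0.975) and Khk (0.975). Apol10b was thus 5th of 8349 genes. For Apol10b itself the 3 highest were Fndc5 (0.984), Apol7c (0.977) and Camkk1 (0.973). By Spearman's rho in place of r, 3 of the 8 genes remained for Apol7c (Ctla2b, Tifab and Ptgis) and 2 of the 3 for Apol10b. The pair itself fell out of both: Apol10b was not among the 8 highest for Apol7c by rho, nor Apol7c among the 3 highest for Apol10b, with rho = 0.965 between them. Ctla2b, related to the propeptide of cathepsin-like proteases, averaged 350 ± 60.6 CPM in duodenum, 119 ± 13.1 in liver and 16.3 ± 3.43 CPM in pancreas. Ptgis, which encodes prostacyclin synthase, averaged 36.8 ± 9.58 CPM in duodenum, 6.998 ± 1.73 in liver and 1.72 ± 1.21 CPM in pancreas. Fndc5, the precursor of irisin, averaged 46.3 ± 8.92 CPM in duodenum, 15.4 ± 2.75 in liver and 2.81 ± 1.08 CPM in pancreas. Camkk1, a calcium-dependent kinase, averaged 40.6 ± 8.12 CPM in duodenum, 4.57 ± 0.444 in liver and 1.28 ± 0.777 CPM in pancreas. The same order held at a smaller span in Khk, the kinase that starts fructose breakdown, with means of 137 CPM in duodenum, 77.4 in liver and 49.1 CPM in pancreas. Apol7c itself averaged 2434 ± 358 CPM in duodenum, 287 ± 81.3 in liver and 24.5 ± 20.6 CPM in pancreas, the widest span of the genes named.

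**Figure D4:**
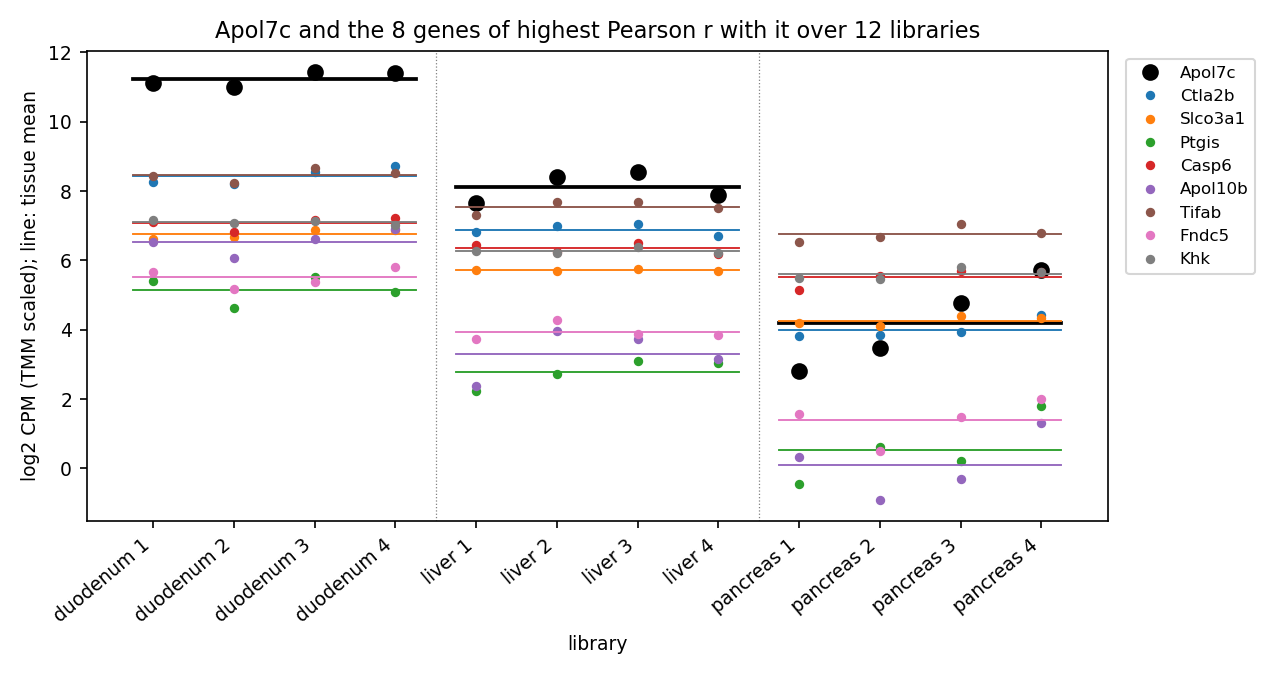
Log2 CPM of Apol7c (black) and of the 8 genes with the highest Pearson r with it, with 1 point per library and a line at each tissue's mean. All 9 genes were highest in duodenum and lowest in pancreas by their means, and Apol7c spanned the most, with libraries 3 and 4 of pancreas above libraries 1 and 2.

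Since recruitment of APOL7C to phagosomes is known to need the NADPH oxidase, the genes of that enzyme and the proton channel that supports it were compared between the same libraries. Of 8 genes, 3 were called higher and 1 lower in duodenum than in liver, 4 higher in duodenum than in pancreas, and 1 lower in liver than in pancreas. Cybb, the catalytic subunit, averaged 32.4 ± 14.7 CPM in duodenum, 5.88 ± 1.87 in liver and 4.35 ± 0.399 CPM in pancreas. It was higher in duodenum by 2.46 ± 0.33 on the log2 scale than in liver (SE, adjusted p = 2.72e-04, edgeR quasi-likelihood test) and by 2.89 ± 0.33 than in pancreas (adjusted p = 6.01e-05). Cybb did not separate liver from pancreas as Apol7c did (0.43 ± 0.31, adjusted p = 0.83). Hvcn1, the voltage-gated proton channel, averaged 27.1 ± 8.83 CPM in duodenum, 3.21 ± 1.84 in liver and 10.9 ± 4.91 CPM in pancreas, an order other than that of Apol7c. It was higher in duodenum than in liver by 3.08 ± 0.41 (adjusted p = 2.65e-04). Its difference from pancreas of 1.31 ± 0.38 (adjusted p = 0.0499) was lost in 7 of 23 alternatives, and its difference of -1.76 ± 0.39 between liver and pancreas (adjusted p = 0.0422) in 13 of 23. Rac2, the GTPase that activates the enzyme in leukocytes, was higher in duodenum by 0.75 ± 0.19 than in liver (adjusted p = 0.0243, lost in 5 of 23 alternatives) and by 1.25 ± 0.19 than in pancreas (adjusted p = 7.03e-04). Ncf1 was higher in duodenum than in pancreas by 0.59 ± 0.16 (adjusted p = 0.0344). The cytosolic subunit Ncf4 ran against Apol7c. It was lower in duodenum than in liver by -0.60 ± 0.12 (adjusted p = 0.00831) and than in pancreas by -0.50 ± 0.12 (adjusted p = 0.0215, lost in 9 of 23 alternatives). Ncf4 is also among the neighbours of the Apol cluster on chromosome 15. The macrophage marker Adgre1 averaged 12.9 CPM in duodenum, 2.67 in liver and 4.75 CPM in pancreas. C1qa, another, averaged 0.627, 2.44 and 1.39 CPM. The sum over 16 macrophage markers ran from 445 to 675 CPM in duodenum, from 545 to 714 in liver and from 991 to 1204 in pancreas. The part of macrophage, cDC2 and plasma cell reads in the differences of these oxidase genes was not tested.

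**Figure D5:**
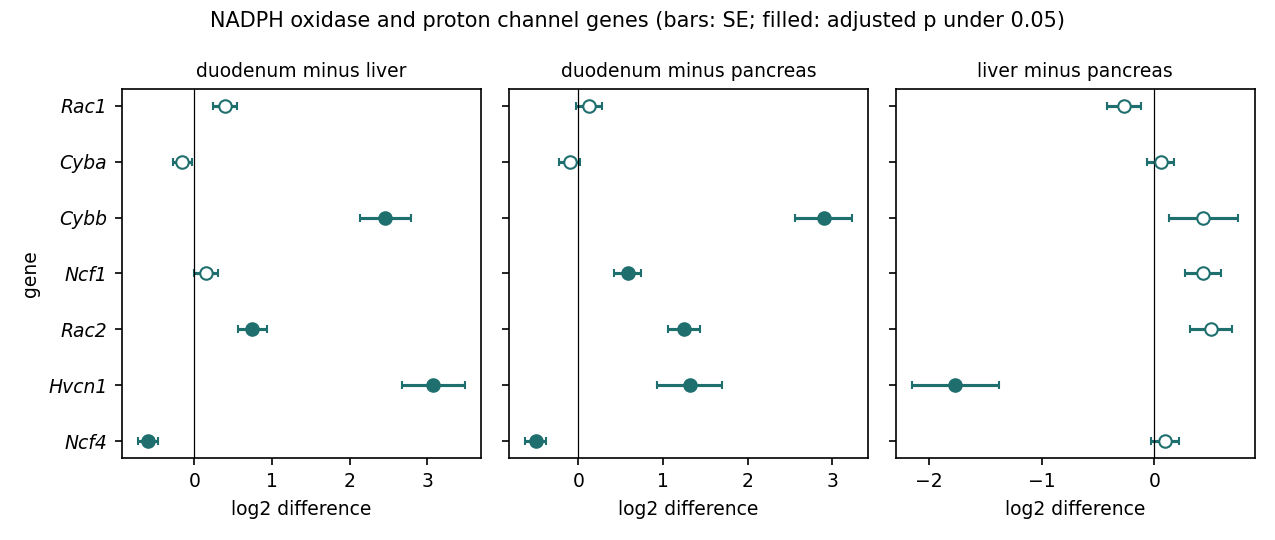
Log2 difference of 7 NADPH oxidase and proton channel genes in the 3 comparisons, as points with SE bars, filled where the adjusted p was under 0.05. Cybb and Hvcn1 were the furthest above 0 in duodenum against liver (2.46 and 3.08), while Ncf4 was below 0 in duodenum against liver and against pancreas.

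Genes that act around cross-presentation and membrane damage were compared in the same libraries. Of 19 cross-presentation genes, 1 was called higher in duodenum than in liver (Syk, the kinase downstream of the dead-cell receptor Clec9a, 0.64 ± 0.17 on the log2 scale, SE, adjusted p = 0.0324) and 1 higher in duodenum than in pancreas (Sec61a1, a channel subunit of the endoplasmic reticulum, 0.61 ± 0.16, adjusted p = 0.0293). Syk lost its call in 7 and Sec61a1 in 10 of 23 alternatives, and without duodenum 2 and pancreas 1 the counts were 5 and 5. Of 27 genes of the response to membrane damage, 4 were called higher and 1 lower in duodenum than in liver. Over all genes tested, 3.95% were called higher and 3.37% lower there. Without duodenum 2 and pancreas 1 the counts were 9 and 1, and the genes called over the whole table rose from 3265 to 4913. Against pancreas, 2 were called higher and 2 lower in duodenum, beside 3.94% and 3.76% of all genes tested. Pi4k2a, a lipid kinase of lysosome repair, was higher in duodenum by 0.83 ± 0.14 than in liver (adjusted p = 0.00185) and by 0.89 ± 0.14 than in pancreas (adjusted p = 8.85e-04). Lgals1, a galectin, was higher in duodenum than in liver by 0.85 ± 0.17 (adjusted p = 0.00678). Anxa2, a membrane-binding annexin, was lower in duodenum (-2.38 ± 0.20, adjusted p = 2.77e-06) and in liver (-1.86 ± 0.19, adjusted p = 1.08e-04) than in pancreas, where Apol7c was lowest, at 360 ± 90.6 CPM in duodenum, 518 ± 66.8 in liver and 1878 ± 355 CPM in pancreas. Of 11 other pore-forming proteins, Gsdmd, the gasdermin that opens the plasma membrane, was the 1 gene called, lower in duodenum by -1.24 ± 0.15 than in liver (adjusted p = 1.44e-04) and by -0.79 ± 0.15 than in pancreas (adjusted p = 0.0041, lost without liver 2, pancreas 3 and pancreas 4).

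Interferon pathway genes were compared with the members, since 6 of the 9 members with a promoter entry hold the response element letters. Of 34 genes, 7 were called lower in duodenum than in liver, the direction opposite to that of Apol7c, Apol10b and Apol8. The count of 7 was 4 without liver 2, pancreas 3 and pancreas 4, and 16 with scaling by library totals. Between duodenum and pancreas 4 were higher and 3 lower in duodenum, and 3 were higher in liver against pancreas. Mx1, an antiviral GTPase, averaged 14.4 ± 2.79 CPM in duodenum, 74.3 ± 1.84 in liver and 59.8 ± 9.63 CPM in pancreas, and was lower in duodenum by -2.37 ± 0.16 than in liver (SE, adjusted p = 8.16e-07). Iigp1, an interferon-induced GTPase, was lower in duodenum than in liver by -2.64 ± 0.33 (adjusted p = 1.74e-04). Cxcl10, a chemokine, was higher in duodenum than in pancreas by 2.91 ± 0.52 (adjusted p = 0.00244). Tlr3, the receptor for double-stranded RNA that cDC1 carry, averaged 168 CPM in duodenum, 142 in liver and 113 CPM in pancreas, and was higher in duodenum than in pancreas (0.57 ± 0.14, adjusted p = 0.0233, lost in 7 of 23 alternatives). The interferon-inducible members Apol9a and Apol9b stayed at 0.530 TPM or less on average in every tissue.

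The other apolipoproteins, with lipoprotein receptors and sterol exporters, were compared in the same cells. Of 27 such genes, 8 were lower in duodenum than in liver, 3 lower in duodenum than in pancreas, and 5 higher in liver than in pancreas, which was 1 without liver 2, pancreas 3 and pancreas 4. Apoe, an apolipoprotein of macrophages and liver, averaged 23.3 ± 10.6 CPM in duodenum, 72.0 ± 19.1 in liver and 12.3 ± 1.00 CPM in pancreas. Abcg1, a sterol exporter, was lower in duodenum by -3.09 ± 0.17 than in liver (SE, adjusted p = 1.26e-07) and by -2.66 ± 0.16 than in pancreas (adjusted p = 2.46e-07). Hepatocyte transcripts were also read, with 17 of 20 markers lower in duodenum than in liver. Alb was at 0.307 CPM in duodenum, 11.1 in liver and 0.244 CPM in pancreas. The sum over the 20 markers had another order, from 46.1 to 56.1 CPM in duodenum, from 186 to 289 in liver and from 390 to 458 in pancreas. Between liver and pancreas, 13 markers were called higher and 1 lower in liver. Apoa1, Apoa2, Apoa5, Apoc1 and Apoc3 were among the apolipoproteins lower in duodenum than in liver, and the part of hepatocyte transcripts in them was not tested.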

How the data were processed

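Migratory DCs of duodenum, liver and pancreas were sequenced in bulk, with 4 libraries per tissue, grouped by the tissue in the labels. Kallisto and the build GRCm39 are named per the submitters' processing notes; version and index: not given in the sources used here. A table of estimated counts and a table of TPM, which is scaled for gene length and depth, were deposited by the authors, both with 55401 genes. Per the labels' design text each library pools 2 mice, so p-values measure the spread between pools.

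The estimated counts, rounded to whole numbers, were fitted with edgeR 4.0.16 in R 4.3.3: filterByExpr at a minimum count of 10 (44624 genes), TMM, 1 robust quasi-likelihood model over 12 libraries, and Benjamini-Hochberg adjustment over all genes tested with a threshold of 0.05. "Called" means past that threshold, and CPM are TMM-scaled. An SE is the absolute log2 difference over the square root of F. Levels between genes are compared in TPM only. The fit was tested on simulated counts. Alternatives were other scalings, no filter, DESeq2 1.42.0, limma 3.58.1 on log2(TPM + 1) and log2(TPM + 0.1), a replicate block, left-out libraries and summed paralogs.

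The members and all gene lists were chosen with earlier results of these data known. Named were every member, other Apol genes, up to 3 called genes per list, comparison and direction with at least 10 CPM, some cDC1 and interferon genes, and the genes of highest r. Outside that rule, Ncf1, Jchain and the apolipoproteins named beside the hepatocyte transcripts were chosen after their values were seen. Replicates of a tissue differed by more than sampling noise. The transcripts and promoters used are of GRCm38, so no coordinate was matched to the deposited tables, and matching was by symbol (9 of 10 members had a promoter). Some genes of the lists are not reported here.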

Additional observations from a re-analysis of the deposited data

Results flagged for a closer look

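In 3 of 30 groups of 4 libraries (10 members in 3 tissues), the highest or lowest library stood apart by a gap above the 95% critical value of Dixon's test, as chance does in about 1 in 20. Apol9b was at 1.1049 TPM in duodenum 2, with a gap of 0.943 of the range, and the sign of its difference from liver turned without that library, as given above. Apol8 was at 0.4206 TPM in pancreas 1, with a gap of 0.859 of the range. Apol9a was at 0.1883 TPM in pancreas 3, the lowest of its group, with a gap of 0.881 of the range.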

How the results depend on the processing

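Apol7c, Apol10b and Apol8 kept the sign of both duodenum differences in every alternative run, and so did Apol7c and Apol10b between liver and pancreas. Over 22 alternatives without the paralog sums, the Apol7c difference ran from 2.92 to 3.28 between duodenum and liver, from 6.38 to 8.10 between duodenum and pancreas and from 3.24 to 4.88 between liver and pancreas. Of the member values over all settings, 28 moved by more than the spread between libraries and 662 did not. The 28 include values with paralogs summed, where each gene takes the value of its sum. Apol7a, Apol7b, Apol7e and Apol10a moved there in all 3 comparisons through that exchange, which says nothing on how they depend on processing. With the counts of paralogs summed, 7, 7 and 6 members were called, since each gene takes the call of its sum. Leaving out 1 library at a time, 3, 3 to 4 and 2 members were called in duodenum against liver, duodenum against pancreas and liver against pancreas. The genes called over the whole table were then 2397 to 4807, 2596 to 4716 and 343 to 749 (3265, 3437 and 494 with all libraries); the highest of each came without duodenum 2. Scaling by library totals called 820 genes between liver and pancreas, and DESeq2 1171, with 5133 between duodenum and liver. Without liver 2, pancreas 3 and pancreas 4, 2069, 1712 and 177 genes were called. Without duodenum 2 and pancreas 1, chosen after the data were seen, 4913 were called between duodenum and liver. The causes were not tested. With the replicate block 2931, 3125 and 436 genes and 3, 3 and 2 members were called. The labels do not state that the replicate numbers pair libraries of different tissues. Same-numbered libraries did not deviate together (r from -0.09 to 0.13 over 12 pairs), which cannot show whether they came from the same mice. Of the genes called between duodenum and liver, 54.0% were higher in duodenum, 64.7% with DESeq2 size factors and 36.5% with library totals (38.5% higher in liver against pancreas, 52.2% with library totals), and library totals moved the median of all genes between duodenum and liver to -0.25, against -0.10. The least estimated count of a member in a library was 6.42, for Apol9b, so the lowest members rest on few counts in some libraries.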
